A study of Mus musculus with 10 samples.

Results

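The STAT factors and SOCS feedback genes described here are Jak2, Stat2, Stat3, Stat5a, Stat6, Socs1, Socs2, Socs3 and Cish. They were chosen by name, as the rows of the transcript quantification that carry these symbols, and are 9 of the 54309 genes in that annotation. All 9 passed the filter on low counts. RNA-seq was performed on ipsilateral lumbar 4 and 5 dorsal root ganglia (DRG), the ganglia that hold the cell bodies of sensory neurons whose axons run in the sciatic nerve, at 24 h after surgery. The mice were C57BL/6 females and males of 6 to 8 weeks, with no transgene or drug. Axotomy was a complete cut of the left sciatic nerve under isoflurane, and sham mice, a separate cohort, had the nerve exposed but not cut. Females and males each had 2 sham libraries and 3 axotomy libraries. Every library pooled the DRG of 2 mice, so no value belongs to a single animal and p-values measure the spread between such pools.

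Cytokines and growth hormone bind receptors that carry JAK kinases. The activated kinases phosphorylate STAT proteins, which then pair, enter the nucleus and switch on genes. Among these genes are the SOCS family and Cish, whose products bind the receptor or the kinase and damp the signal, so their mRNAs are widely used as a readout of recent cytokine signaling. In peripheral neurons, STAT3 is known to be activated after axon injury and SOCS3 to restrain axon regrowth. Phosphorylation of the proteins cannot be read from mRNA.

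STAT dimers bind the palindrome TTCNNNGAA, where N is any base, and STAT6 prefers a spacing with 1 more base, TTCNNNNGAA. Promoters of 8 of the 9 genes (all but Socs2) were matched by symbol in a RefSeq table of the GRCm38.p6 build, which gives 250 bases before and 50 bases after each start. Both motifs are their own reverse complement, so a search of 1 strand covers both, and in these windows no match of one motif overlapped a match of the other. The first motif was present in 2726 of 32851 promoters in the table (8.30%) and the second in 2284 (6.95%). Socs3 held 1 match to the first motif and Cish held 2, while Stat2 held 1 match to the second. The windows of Stat3, Stat5a (2 promoters), Stat6, Socs1 and Jak2 held neither, which says only that these letters are not in these windows. The 3 promoters with a match are printed 5′ to 3′ up to the start, and for Cish up to the end of its second match, with the matches in capitals.
Socs3, chr11:117969367-117969616, minus strand: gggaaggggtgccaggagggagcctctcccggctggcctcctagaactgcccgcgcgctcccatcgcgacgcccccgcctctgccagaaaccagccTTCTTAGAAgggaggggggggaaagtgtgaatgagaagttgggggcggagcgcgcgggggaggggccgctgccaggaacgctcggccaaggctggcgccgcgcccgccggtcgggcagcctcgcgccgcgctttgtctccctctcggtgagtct
Cish, chr9:107296409-107296678, plus strand: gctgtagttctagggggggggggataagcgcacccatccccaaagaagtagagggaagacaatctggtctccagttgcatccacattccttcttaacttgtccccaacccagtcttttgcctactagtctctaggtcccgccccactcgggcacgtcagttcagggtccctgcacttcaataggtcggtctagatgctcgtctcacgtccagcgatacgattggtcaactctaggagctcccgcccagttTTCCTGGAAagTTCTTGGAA
Stat2, chr10:128270248-128270497, plus strand: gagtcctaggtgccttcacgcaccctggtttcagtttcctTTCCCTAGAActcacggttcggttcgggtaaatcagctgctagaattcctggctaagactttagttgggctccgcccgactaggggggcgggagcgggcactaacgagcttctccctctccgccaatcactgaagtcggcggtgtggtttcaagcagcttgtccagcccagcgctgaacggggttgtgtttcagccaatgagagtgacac

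Counted from 0 at the first base after the start, the Socs3 match TTCTTAGAA lay at −154 to −146. The Cish matches TTCCTGGAA and TTCTTGGAA lay at 0 to 8 and 11 to 19, next to each other at the start. In Stat2, the match TTCCCTAGAA lay at −210 to −201. A match is a description of the letters and no evidence that a factor was bound there in these DRG.

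The libraries held 55258476 to 90111671 estimated counts each, and the levels of Xist and Ddx3y fitted the labelled sex in 10 of 10 libraries. All 13 sensory neuron markers, among them Prph and Scn10a, were detected. Axotomy libraries of both sexes also differed from sham in cell type markers. The summed level of 12 markers of fibroblasts and meninges was 1028 to 1056 CPM (counts scaled to the size of the library) in male sham, 1433 to 2499 in male axotomy, 1254 to 1363 in female sham and 1110 to 1275 in female axotomy. The 11 macrophage markers summed to 60.3 to 65.7 CPM in male sham, 118 to 216 in male axotomy, 77.6 to 91.3 in female sham and 92.1 to 124 in female axotomy. In males, 5 erythrocyte markers summed to 786 to 882 CPM in sham and 1511 to 5196 CPM after axotomy, and 10 markers of T and NK cells to 6.92 to 7.18 CPM and 12.3 to 19.0 CPM. Neuron markers summed to lower values after axotomy in both sexes, from 11500 to 12285 CPM to 10849 to 11112 CPM in females. In males they summed to 12536 to 13097 CPM in sham and 9143 to 11411 CPM after axotomy. Female lists without overlap also included 6 mast cell markers, at 98.2 to 98.8 CPM in sham and 76.2 to 81.95 CPM after axotomy. Another was 7 smooth muscle and pericyte markers, at 253 to 270 CPM and 293 to 326 CPM. No marker of these lists was below 0.05 CPM throughout. Mitochondrial transcripts held 3.01% to 3.27% of counts in the sham and 3.44% to 5.11% in the axotomy libraries, without overlap. The part of these differences in the results was not tested. Male axotomy 3 had the highest sums of the fibroblast and macrophage lists and the lowest sum of neuron markers, 9143 CPM against 10300 to 13097 CPM in the other 9 libraries. In such bulk RNA, more or fewer cells of a type and more or less RNA per cell cannot be told apart.

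The 9 genes covered a wide range of levels. On the TPM scale, the share of transcripts corrected for their length, Stat3, the factor downstream of the interleukin 6 family, was the highest in each group, with 166 ± 1.97 TPM (SD, n = 2) in female sham and 169 ± 6.86 TPM (n = 2) in male sham. Averaged over 10 libraries, its level was above that of 95.3% of the 20836 genes tested. Socs1, an inhibitor best known from interferon signaling in immune cells, was the lowest in each group, at 0.421 to 1.07 TPM over the 10 libraries, above 21.3% of genes tested.

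Between these lay Stat6, the factor of interleukin 4 and 13 signaling, and Stat2, a partner in the interferon-activated complex. Stat6 stood at 57.2 ± 1.94 TPM in female sham and Stat2 at 50.4 ± 3.36 TPM. After axotomy their TPM ranges overlapped in each sex, so the order of this pair was not separated there. Socs2, the inhibitor of growth hormone signaling, came after Stat6 and Stat2 in sham DRG of both sexes with 32.1 ± 3.16 TPM in females and 31.9 ± 1.20 TPM in males.

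In female axotomy, Socs2 was second only to Stat3 with 58.2 ± 3.22 TPM (n = 3), above the highest Stat6 library of that group, at 51.3 TPM. In male axotomy it remained behind Stat6 and Stat2 with 41.2 ± 6.18 TPM, a range of 37.4 to 48.3 that overlapped those of Stat6 and Stat2. Socs3 was below Jak2 in each sham library, with 9.88 to 13.7 TPM against 13.3 to 15.6. In female axotomy Socs3 was above Jak2, with 21.0 to 24.4 TPM against 16.7 to 18.0. In male axotomy it was above Jak2 within each library, by 30.8 against 18.6 TPM, 25.2 against 17.7 TPM and 18.4 against 16.0 TPM, although the ranges overlapped. Of the others, Cish and then Stat5a came next above Socs1 in each group.

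**Figure D1:**
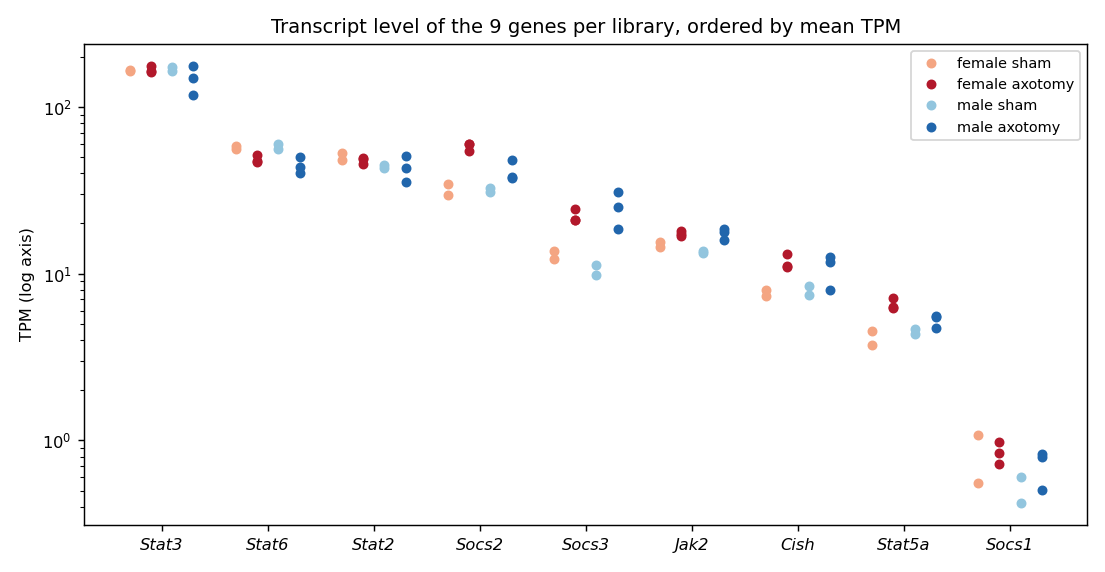
TPM of the 9 genes (log axis) in each of the 10 libraries, with genes ordered by their mean and points coloured by sex and surgery. Stat3 is highest and Socs1 lowest, and the axotomy points of Socs2, Socs3, Cish and Stat5a sit above most sham points of the same gene.

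For each gene, most TPM came from 1 or a few transcripts. The most abundant transcript held 92.4% to 97.1% of the Socs3 TPM, 84.4% to 91.0% of Cish, 84.9% to 89.4% of Stat3 and 83.3% to 88.4% of Stat6. Stat2 stood apart, since protein-coding transcripts held only 52.5% to 62.0% of its TPM and a retained-intron transcript held 20.7% to 27.6%. Counting only protein-coding transcripts changed no call of the 9 genes. Jak2 was divided between a major (72.2% to 88.4%) and a minor (11.6% to 27.8%) protein-coding transcript. Shares of the 2 Socs1 transcripts, from only 39 to 103 estimated counts per library, ran from 0% to 91.0% for one of them and are too unstable to compare.

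Axotomy was compared with sham in each sex by edgeR's quasi-likelihood F test, and genes with p-values adjusted over all 20836 genes (padj) under 0.1 were called. In females 5 of the 9 genes rose, Jak2, Stat5a, Socs2, Socs3 and Cish, and none fell. Over all genes tested, 10.4% rose and 9.74% fell in females. In males the same 5 genes rose and Stat6 fell, against 21.8% and 20.1% of all genes. The median log2 fold change (log2FC) of the 9 genes was 0.32 in females and 0.57 in males, where the medians of all genes were 0.00 and 0.03. Stat2, Stat3 and Socs1 were not called in either sex. Values below are normalised CPM per library, which compare 1 gene across libraries. Overlap of groups is described for single genes and was not counted over all genes.

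**Figure D2:**
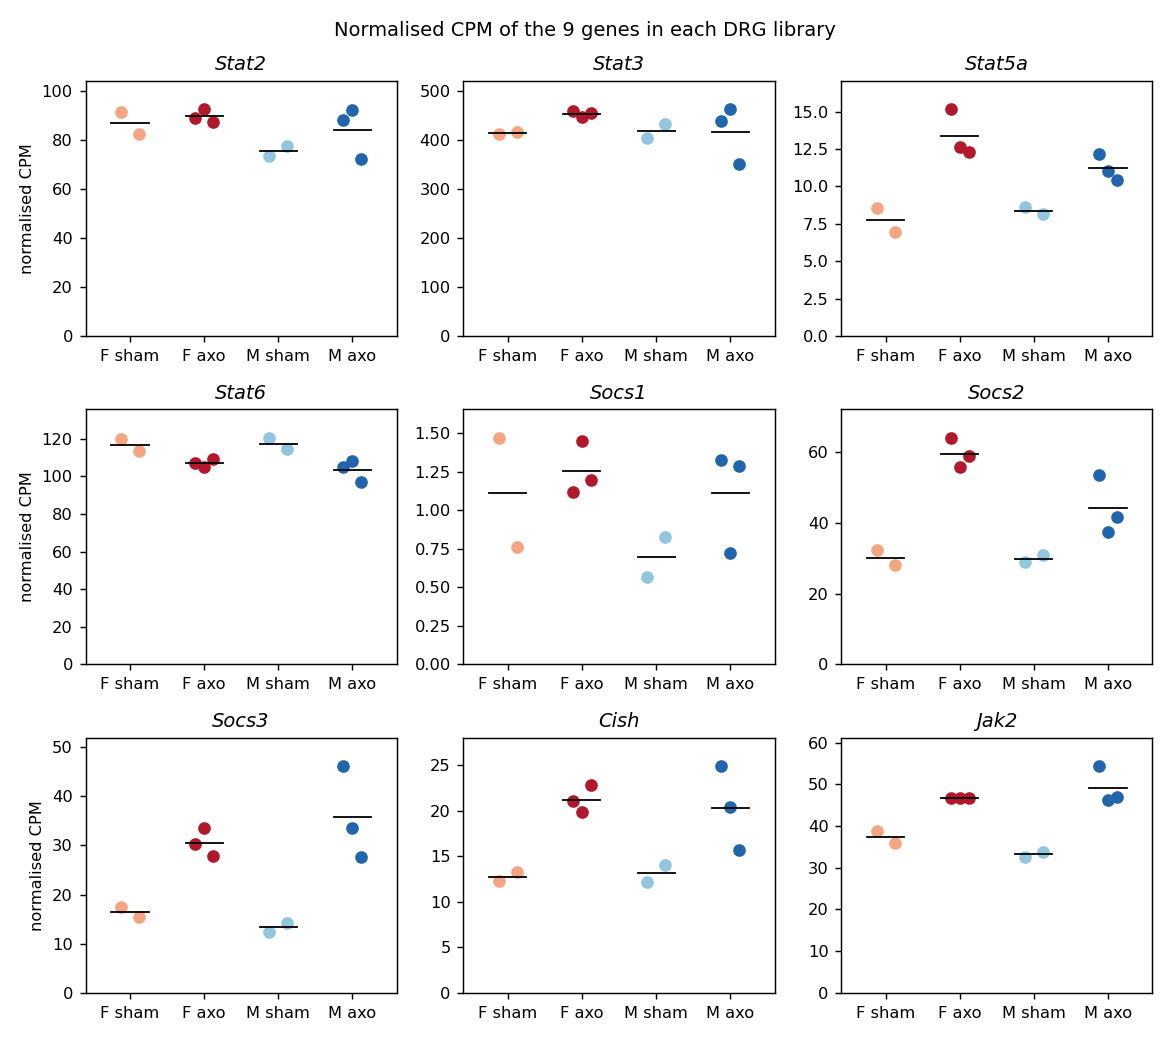
Normalised CPM of each gene by sex and surgery. Points are libraries (2 per sham group, 3 per axotomy group), black bars are group means and each vertical axis starts at 0. Axotomy and sham points do not overlap in either sex for Jak2, Stat5a, Stat6, Socs2, Socs3 and Cish, and overlap in both sexes for Stat2 and Socs1. How many of all genes do not overlap was not counted.

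Jak2 is the kinase used by the growth hormone, leptin and interleukin 6 family receptors. Its level was 38.7 and 35.9 CPM in female sham and 46.8, 46.7 and 46.7 CPM in female axotomy. In males it was 32.5 and 33.9 CPM in sham and 54.3, 46.1 and 47.0 CPM after axotomy. Every axotomy library was above every sham library, and the female axotomy libraries were nearly identical. The rise was 1.25-fold in females (log2FC 0.32, SE 0.08, padj = 0.0289) and 1.48-fold in males (log2FC 0.57, SE 0.08, padj = 0.00127). In females the call was lost without female sham 2 (padj = 0.238).

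Stat5a encodes a factor of growth hormone and prolactin signaling. Its level was 8.57 and 6.98 CPM in female sham and 15.2, 12.6 and 12.3 CPM in female axotomy, and the groups did not overlap. Male levels were 8.65 and 8.13 CPM in sham and 12.2, 11.0 and 10.5 CPM after axotomy, also without overlap. The rise was 1.72-fold in females (log2FC 0.78, SE 0.13, padj = 0.00514) and 1.34-fold in males (log2FC 0.42, SE 0.13, padj = 0.03). The male call was lost without male sham 1 (padj = 0.108) or male sham 2 (padj = 0.19). Its close relative Stat5b shares much of its sequence, so the division of reads between them is an estimate. Stat5a was 16.7% to 20.8% of the summed TPM of both genes in the 4 sham libraries and 21.9% to 25.3% in the 6 axotomy libraries.

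Stat3 was measured with the highest counts of the 9 genes, 21358 to 42347 per library. In females it was 412 and 416 CPM in sham and 458, 447 and 455 CPM after axotomy. Although these groups did not overlap, the difference was 1.10-fold (95% interval 0.934 to 1.29, padj = 0.442) in the fit of all 10 libraries, which share 1 estimate of the spread. Fitted on the 5 female libraries alone, it was called (log2FC 0.14, padj = 0.0912). Male levels were 404 and 433 CPM in sham and 438, 462 and 350 CPM after axotomy. The lowest of these was male axotomy 3, and the male fold was 0.996 (95% interval 0.849 to 1.17, padj = 0.975).

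Stat6 was lower in axotomy than in sham libraries. Its level was 120 and 113 CPM in female sham and 107, 105 and 109 CPM after axotomy. In males it was 120 and 114 CPM in sham and 105, 108 and 96.8 CPM after axotomy. The groups did not overlap in either sex, but the differences were small, with a female log2FC of −0.12 (SE 0.07, padj = 0.272) and a male log2FC of −0.19 (SE 0.07, padj = 0.0625). The male call was lost when male sham 1 (padj = 0.321), male sham 2 (padj = 0.135) or male axotomy 3 (padj = 0.119) was left out. It was also lost with no filter on low counts (padj = 0.185), with no length offset (padj = 0.144) and when only male libraries were fitted (padj = 0.17).

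Stat2 overlapped between sham and axotomy in both sexes. It was 91.6 and 82.7 CPM in female sham and 89.2, 92.6 and 87.5 CPM in female axotomy, a log2FC of 0.04 (SE 0.10, padj = 0.814). In males it was 73.4 and 77.6 CPM in sham and 88.0, 92.1 and 72.1 CPM after axotomy, a log2FC of 0.16 (SE 0.10, padj = 0.253). The lowest was again male axotomy 3, and without that library the male rise was called (log2FC 0.26, padj = 0.0238).

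Socs3, the inhibitor of signaling through the gp130 receptor chain, had the highest male log2FC of the 9 genes. Its level was 17.5 and 15.5 CPM in female sham and 30.3, 33.6 and 27.8 CPM in female axotomy. Male DRG had 12.4 and 14.3 CPM in sham and 46.1, 33.6 and 27.7 CPM after axotomy. Each axotomy library was above each sham library of either sex, and male axotomy 1 was the highest of all. Socs3 rose 1.85-fold in females (95% interval 1.40 to 2.45, log2FC 0.89, SE 0.18, padj = 0.0129) and 2.69-fold in males (95% interval 2.01 to 3.58, log2FC 1.43, SE 0.19, padj = 0.000915). Of all genes tested, 3.00% had a higher male log2FC and 4.78% a higher female one. The female call was lost without female sham 2 (padj = 0.137), and the male call held when any library was left out.

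Because Socs3 rose and Stat3 was not called, the balance of inhibitor and factor mRNA differed between sham and axotomy libraries. Socs3 TPM was 7.33% to 8.34% of Stat3 TPM in female sham, 6.02% to 6.48% in male sham, 12.0% to 14.7% in female axotomy and 14.3% to 20.7% in male axotomy. The axotomy libraries of each sex lay above all sham libraries. Cish, which acts on STAT5 signaling, was set against Stat5a and Stat5b in the same way. It was 32.5% to 36.5% of their summed TPM in the sham libraries and 39.6% to 52.0% in the axotomy libraries, again without overlap.

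Socs2 had the highest female log2FC of the 9 genes. Its level was 32.4 and 28.004 CPM in female sham and 64.1, 55.8 and 59.1 CPM in female axotomy. In males it was 28.9 and 30.9 CPM in sham and 53.7, 37.4 and 41.8 CPM after axotomy, so that male axotomy 2 was closest to sham. The rise was 1.97-fold in females (95% interval 1.60 to 2.44, log2FC 0.98, SE 0.14, padj = 0.00233) and 1.48-fold in males (95% interval 1.20 to 1.83, log2FC 0.57, SE 0.14, padj = 0.0102). Both calls held when any library was left out.

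Cish, the founding member of the family, is an early target of STAT5. Its level was 12.3 and 13.2 CPM in female sham and 21.0, 19.8 and 22.8 CPM in female axotomy. Male DRG had 12.2 and 14.0 CPM in sham and 24.9, 20.4 and 15.7 CPM after axotomy, so the male axotomy libraries were spread widely but remained above sham. On the TPM scale the male groups overlapped, with male axotomy 3 at 7.95 TPM and male sham 2 at 8.44 TPM. The rise was 1.66-fold in females (log2FC 0.73, SE 0.16, padj = 0.017) and 1.55-fold in males (log2FC 0.63, SE 0.16, padj = 0.0134). The female call was lost without female sham 1 (padj = 0.125) or female sham 2 (padj = 0.112), and the male call without male sham 1 (padj = 0.123).

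Socs1 could not be measured precisely at its level. It was 1.47 and 0.761 CPM in female sham and 1.12, 1.45 and 1.20 CPM in female axotomy. Male DRG had 0.568 and 0.829 CPM in sham and 1.33, 0.725 and 1.29 CPM after axotomy, and sham and axotomy overlapped in both sexes. The fold was 1.12 in females (95% interval 0.671 to 1.87, padj = 0.791) and 1.59 in males (95% interval 0.93 to 2.71, padj = 0.167), and the male interval holds a fold as large as that of Socs3. Without male axotomy 2 the male rise was called (padj = 0.0468). In that fit 48.02% of all genes were called in males, where 21.8% rose and 20.1% fell with all libraries.

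**Figure D3:**
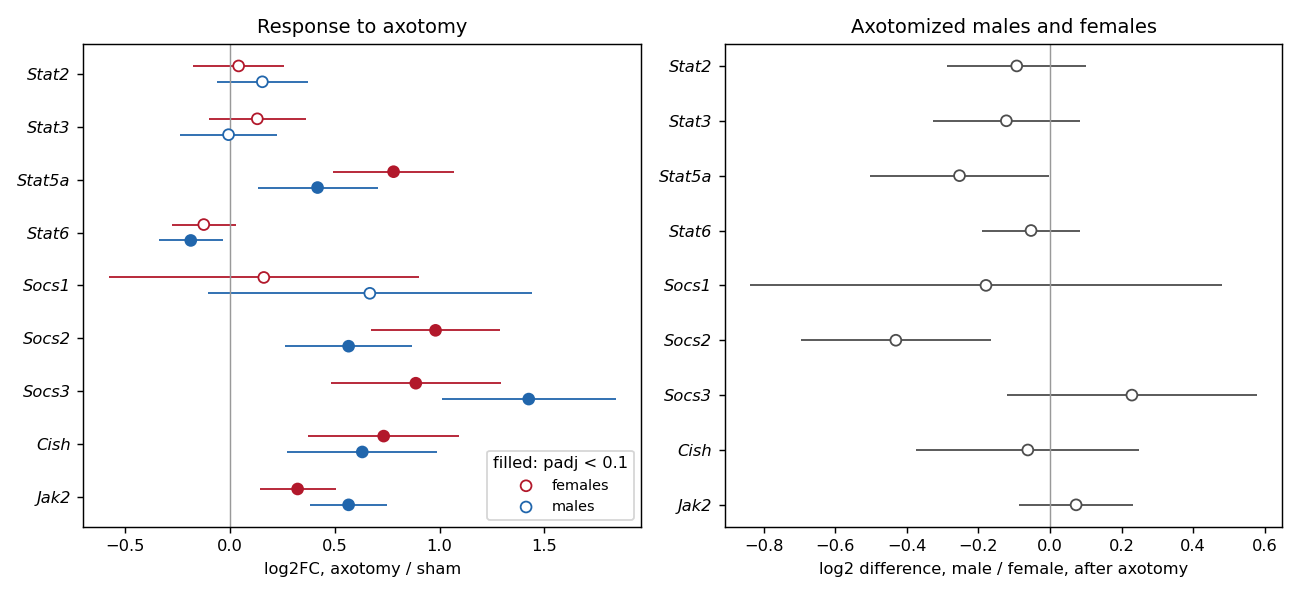
Left, log2FC of axotomy against sham in females and males, and right, the log2 difference of males against females after axotomy, with 95% intervals from the edgeR fit. Filled points have padj under 0.1, which holds for 5 genes in females, 6 in males and none in the comparison of the sexes after axotomy.

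As given above, summed macrophage markers were higher after axotomy in both sexes, and those of fibroblasts and meninges in males. With the fibroblast and meningeal marker level of each library as a covariate, none of the 9 genes was called in males, and 1.51% of all genes were. In males the lowest axotomy library exceeded both sham libraries in this covariate, so marker level and injury cannot be told apart in that fit. The male log2FC with the covariate was 1.61 for Socs3 (padj = 0.148), 0.96 for Cish (padj = 0.254), 0.47 for Jak2 (padj = 0.24), 0.40 for Stat5a (padj = 0.549) and 0.22 for Socs2 (padj = 0.777). In females every axotomy library was below every sham library in this covariate, so marker level and injury cannot be told apart there either. The same 5 genes were called in females with the covariate as without it, with a log2FC of 1.03 for Socs2 and 0.86 for Socs3. Stat6 was called as well (log2FC −0.15, padj = 0.0873). Calls were also more frequent over all genes in that female comparison, at 31.2%. The male log2FC was 0.54 for Stat2 (padj = 0.159) and 0.43 for Stat3 (padj = 0.212) with the covariate, both larger than without it and neither called. With 1 surrogate variable in the fit, in which sham libraries exceeded axotomy libraries, 3 of the 9 genes were called in females, where 7.21% of all genes were, and none in males, where 0.12% of all genes were. Socs3 (log2FC 0.73, padj = 0.158) and Jak2 (log2FC 0.23, padj = 0.227) were then lost in females. In males the log2FC was then 0.02 for Socs2 (padj = 0.987), 0.10 for Stat5a (padj = 0.932) and 0.37 for Jak2 (padj = 0.453), whereas it was 1.12 for Socs3 (padj = 0.388) and 0.71 for Cish (padj = 0.57). The part of macrophages in these differences was not tested.

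The sexes were compared in 3 ways. The male and the female response to axotomy were not distinguished for any of the 9 genes by the interaction term. None was called, against 0.0192% of all genes, and none had an unadjusted p under 0.05, against 11.4% of all genes. The interaction was −0.41 for Socs2 (padj = 0.446), −0.36 for Stat5a (padj = 0.478), 0.54 for Socs3 (padj = 0.456) and 0.24 for Jak2 (padj = 0.461). Thus the fold in males was 0.751 of that in females for Socs2 (95% interval 0.561 to 1.01) and 1.45 of it for Socs3 (95% interval 0.984 to 2.14). Differences of this size can be neither claimed nor dismissed with these libraries. DESeq2 called none of the 9 either, against 3.03% of all genes.

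In sham DRG, none of the 9 genes was called between males and females, against 0.0432% of all genes by edgeR and 0.15% by DESeq2. None had an unadjusted p under 0.05, against 3.22% of all genes, and 0 of 9 is near that share. Stat2, Socs3 and Jak2 were lower in both male than in both female sham libraries. Their log2 differences were −0.21 (SE 0.11), −0.31 (SE 0.20) and −0.17 (SE 0.09). How many of all genes separate the sham libraries by sex in this way was not counted. With so few sham libraries, such a separation can arise without a difference between the sexes, and none is claimed for these genes.

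After axotomy, none of the 9 genes was called between the sexes by edgeR, against 1.52% of all genes. Socs2 and Stat5a had an unadjusted p under 0.05, which 15.4% of all genes had, and 2 of 9 is near that share. Socs2 was lower in each male than in each female axotomy library, 0.742-fold (95% interval 0.617 to 0.891, edgeR padj = 0.14). It was called by DESeq2 (padj = 0.02), with no filter on low counts (padj = 0.0715) and without male axotomy 1 (padj = 0.0577) or male axotomy 2 (padj = 0.0943). Of all genes, 7.12% were called by DESeq2, 1.75% with no filter, 0.39% without male axotomy 1 and 17.28% without male axotomy 2. Stat5a was also lower in each male axotomy library, with a log2 difference of −0.25 (SE 0.11, padj = 0.322).

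Among other STAT and JAK genes, Stat5b rose in females (log2FC 0.34, SE 0.09, padj = 0.037) from 52.2 to 53.5 CPM in sham to 63.9 to 68.8 CPM. This call was lost without female sham 1 (padj = 0.187), female sham 2 (padj = 0.192) or female axotomy 1 (padj = 0.106) and with the surrogate variable (padj = 0.125). Tyk2, a kinase of interferon and interleukin 12 receptors, fell in females (log2FC −0.23, SE 0.08, padj = 0.0796), a call lost in 7 of 10 fits that left out 1 library. Jak1, a kinase shared by many cytokine receptors, fell in males (log2FC −0.38, SE 0.11, padj = 0.023) from 492 to 505 CPM to 327 to 430 CPM. The Jak1 call was lost without male sham 1 (padj = 0.131), and its log2FC was 0.08 with the fibroblast covariate. Stat4 (log2FC −0.07 in females and 0.85 in males) and Jak3 (log2FC −0.16 and 0.16) were not called in either sex.

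Other inhibitors of the pathway were a mixed group. Of 12 tested, 2 rose and 1 fell in females, and 4 rose and 4 fell in males. Without female sham 2 these were 1 and 0 in females, and without male sham 2 they were 3 and 2 in males. The phosphatase gene Ptpn1 rose in both sexes, with a female log2FC of 0.56 (SE 0.08, padj = 0.00267) and a male log2FC of 0.64 (SE 0.08, padj = 0.000817). Ptpn2, whose product dephosphorylates JAK and STAT proteins, rose with a female log2FC of 0.45 (SE 0.12, padj = 0.0359) and a male log2FC of 0.79 (SE 0.12, padj = 0.0015). Ptpn6, the phosphatase SHP-1 of blood cells, rose in males (log2FC 1.35, padj = 0.00544). Its male log2FC was 0.52 with the fibroblast covariate (padj = 0.716). Of the remaining SOCS genes, Socs7 (log2FC −0.34, padj = 0.00803) and Socs5 (log2FC −0.26, padj = 0.0174) fell in males, while Socs6 rose in males (log2FC 0.28, padj = 0.0429), and Socs4 was not called. None of these 4 was called in females. With the fibroblast covariate or the surrogate variable, none of the 12 inhibitors was called in males. The calls of Socs5 (padj = 0.114) and Socs6 (padj = 0.284) were lost without male sham 2, that of Socs6 also without male axotomy 1 (padj = 0.123), and that of Ptpn2 in females without female sham 2 (padj = 0.287).

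Ligand mRNAs were mostly too low to test, with 10 of 26 past the filter. Of these, 2 rose in females and 5 in males, and none fell. The female count was 1 when either female sham, either male sham, female axotomy 1 or female axotomy 2 was left out. The male count was 1 without male sham 1, without male sham 2 and with the fibroblast covariate, and 0 with the surrogate variable. Without male axotomy 1, 3 rose and 1 fell in males. Il6, which signals through gp130, JAK kinases and STAT3, stood at 0.607 to 1.09 CPM in female sham and 2.54 to 3.59 CPM after axotomy (log2FC 1.91, SE 0.30, padj = 0.00345). In males it stood at 0.383 to 0.514 CPM and 4.19 to 6.17 CPM (log2FC 3.45, SE 0.33, padj = 0.000252). Cntf, made by Schwann cells, rose in males (log2FC 1.28, SE 0.33, padj = 0.0188) from 42.0 to 43.3 CPM to 70.7 to 122 CPM, while females had 72.0 to 94.2 CPM in sham and 43.1 to 88.8 CPM after axotomy. Summed Schwann cell markers were 4884 to 5445 CPM in male sham and 6940 to 9565 CPM in male axotomy, and their part in the Cntf value was not tested. The male Cntf call was lost without male sham 1 (padj = 0.1, at the threshold) or male sham 2 (padj = 0.107). The male log2FC was 0.10 with the fibroblast covariate and −0.35 with the surrogate variable, where Cntf fell in females (log2FC −1.19, padj = 0.00492).

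Of 28 receptor chains tested, 4 rose and 1 fell in females, and 10 rose and 4 fell in males. The chains of the interleukin 4 and 13 receptors, which act through STAT6, were among them. Il13ra1 rose from 12.6 to 13.3 CPM to 20.5 to 24.7 CPM in females (log2FC 0.77, SE 0.13, padj = 0.00471) and from 10.4 to 11.8 CPM to 18.1 to 23.1 CPM in males (log2FC 0.93, SE 0.13, padj = 0.000997). Il4ra rose with a female log2FC of 0.74 (SE 0.14, padj = 0.00745) and a male log2FC of 0.82 (SE 0.14, padj = 0.00199). Il2rg, the shared chain of several interleukin receptors, rose with a female log2FC of 0.93 (SE 0.23, padj = 0.0251) and a male log2FC of 1.31 (SE 0.23, padj = 0.00255). In males 1 receptor chain rose with the fibroblast covariate and 0 with the surrogate variable, and none fell. The female Il2rg call was lost without female sham 1 (padj = 0.1, at the threshold) or female sham 2 (padj = 0.209). The receptor rises in females were 2 when either of these libraries was left out, and those in males were 6 without male sham 2.

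Genes listed as responsive to each STAT were counted in the same fits. The lists were chosen with earlier results of these data known, so the counts are a description and no test. Calls over all genes also changed between fits, which holds for the lists above as well. In females 9.67% of all genes were called without female axotomy 1 and 11.38% without female axotomy 2. With all 10 libraries 10.4% rose and 9.74% fell. When a sham library was left out, fewer of all genes were called in that sex. Of 22 STAT3-responsive genes tested, 10 rose and 2 fell in females (median log2FC 0.45), and 16 rose and 1 fell in males (median log2FC 0.81). The female rises were 4 without female sham 2, 6 without female sham 1 or female axotomy 1, and 5 with the surrogate variable. In males the rises were 13 to 18 when 1 library was left out, 3 with the fibroblast covariate and 0 with the surrogate variable. Sprr1a, a gene linked to axon growth, rose with a female log2FC of 3.62 (SE 0.31, padj = 0.000409) and a male log2FC of 2.46 (SE 0.30, padj = 0.000817). Gal, which encodes the neuropeptide galanin, rose from 14.7 to 16.1 CPM to 92.4 to 134 CPM in females and from 14.6 to 22.0 CPM to 52.3 to 80.0 CPM in males. Timp1, an inhibitor of metalloproteinases, rose with a female log2FC of 1.78 (SE 0.23, padj = 0.00143) and a male log2FC of 2.47 (SE 0.23, padj = 0.000296). These genes have other regulators besides STAT3.

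Interferon-responsive genes are targets of the complex that holds STAT2. Of 18 tested, 6 rose in females and 13 in males, and none fell, with medians of 0.62 and 1.04 on the log2 scale. The shares of all genes given above for fits without 1 library apply here too. The female count was 0 without female sham 2, without female axotomy 1 and with the surrogate variable, and 3 or 4 without female axotomy 2, female sham 1 or either male sham library. The male count was 7 without male sham 1, 3 without male sham 2 and 0 with the fibroblast covariate or the surrogate variable. Xaf1 rose with a female log2FC of 0.61 (SE 0.18, padj = 0.0476) and a male log2FC of 1.19 (SE 0.18, padj = 0.00148). Irf9, the DNA-binding partner of STAT2, rose with a female log2FC of 0.43 (SE 0.16, padj = 0.0952) and a male log2FC of 0.71 (SE 0.16, padj = 0.00674). Oas1a, an antiviral enzyme, rose 2.01-fold (padj = 0.0333) in females and 2.33-fold (padj = 0.00668) in males. All 3 female calls were lost without female sham 2, with padj of 0.361 for Xaf1, 0.477 for Irf9 and 0.277 for Oas1a, and without female axotomy 1, with padj of 0.148, 0.225 and 0.101. The female Irf9 call was lost in 7 of 10 fits that left out 1 library.

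STAT5-responsive genes were divided. Of 11 tested, 1 rose and 2 fell in females, and 4 rose and 3 fell in males. None was called in males with the fibroblast covariate or the surrogate variable. No gene of this list was called in females without female sham 1, female sham 2, female axotomy 1 or female axotomy 2, and 1 rose in males without male sham 1 or male sham 2. Pim2, a kinase gene, fell in both sexes, with a female log2FC of −0.44 (SE 0.12, padj = 0.0342) and a male log2FC of −0.65 (SE 0.12, padj = 0.00286). The female Pim2 call was lost without female sham 1 (padj = 0.112), female sham 2 (padj = 0.242), female axotomy 1 (padj = 0.12) or female axotomy 2 (padj = 0.104). Prlr, the prolactin receptor, fell in males (log2FC −1.15, SE 0.30, padj = 0.0151), with −0.82 (padj = 0.101) in females. The female fall was called by DESeq2 (padj = 0.0345), when only female libraries were fitted (padj = 0.0514) and in 3 of 10 fits that left out 1 library. Ccnd1, a cell cycle gene, rose in males (log2FC 0.52, SE 0.10, padj = 0.00384), with 0.11 (padj = 0.496) in females. The male Ccnd1 log2FC was 0.08 with the fibroblast covariate (padj = 0.847).

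STAT6-responsive genes, a list known from macrophages, were called mostly in males. Of 11 tested, 1 rose and 2 fell in females, and 8 rose and none fell in males, with a median log2FC of −0.26 and 0.89. In females 0 rose and 1 fell when either sham library, female axotomy 1 or female axotomy 2 was left out. The male count was 3 without male sham 1, 4 without male sham 2 or male axotomy 1, and 0 with the fibroblast covariate or the surrogate variable. The interaction was called for none of the 11. Tgm2 rose in males (log2FC 0.83, SE 0.11, padj = 0.00086) and so did Cd209a, a lectin gene of dendritic cells and macrophages (log2FC 2.22, SE 0.42, padj = 0.00353). Irf4, at 0.109 to 0.862 CPM, fell in females (log2FC −1.90, SE 0.37, padj = 0.0102) and rose in males (log2FC 0.89, SE 0.36, padj = 0.0785), with an interaction padj of 0.161, and the male call was lost in 6 of 10 fits that left out 1 library. It was also lost with DESeq2 (padj = 0.134) and when only male libraries were fitted (padj = 0.125), and the log2FC was −0.23 with the fibroblast covariate and −0.35 with the surrogate variable. The macrophage markers given above, which share Mrc1 with this list, moved in the same direction as it in males. Their part was not tested. Between the sexes after axotomy, 7 of the 112 list genes tested were called and all were higher in males, among them Tgm2 (log2 difference 0.46, padj = 0.0714), Cd209a (1.79, padj = 0.0684), Irf4 (1.89, padj = 0.0533) and Ccnd1 (0.56, padj = 0.0305). Of all genes, 1.52% were called in this comparison. That share was 0.11% with the fibroblast covariate, 0.12% without female axotomy 2 and 17.28% without male axotomy 2. The 7 calls were not followed through those fits.

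With the fibroblast covariate, 4 genes of all the lists were called up in males and none down, where 57 rose and 11 fell without it. In females, STAT3-responsive genes were called 14 up and 2 down with the covariate. Some genes stand in more than 1 list, among them Osmr and Il4ra (receptors and STAT3), Pim1, Bcl2l1 and Ccnd1 (STAT3 and STAT5), Osm (ligands and STAT5) and Prlr (receptors and STAT5). Some also stand in a cell type marker list, among them Mrc1 (STAT6 and macrophages) and Egr2 (STAT6 and Schwann cells).

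**Figure D4:**
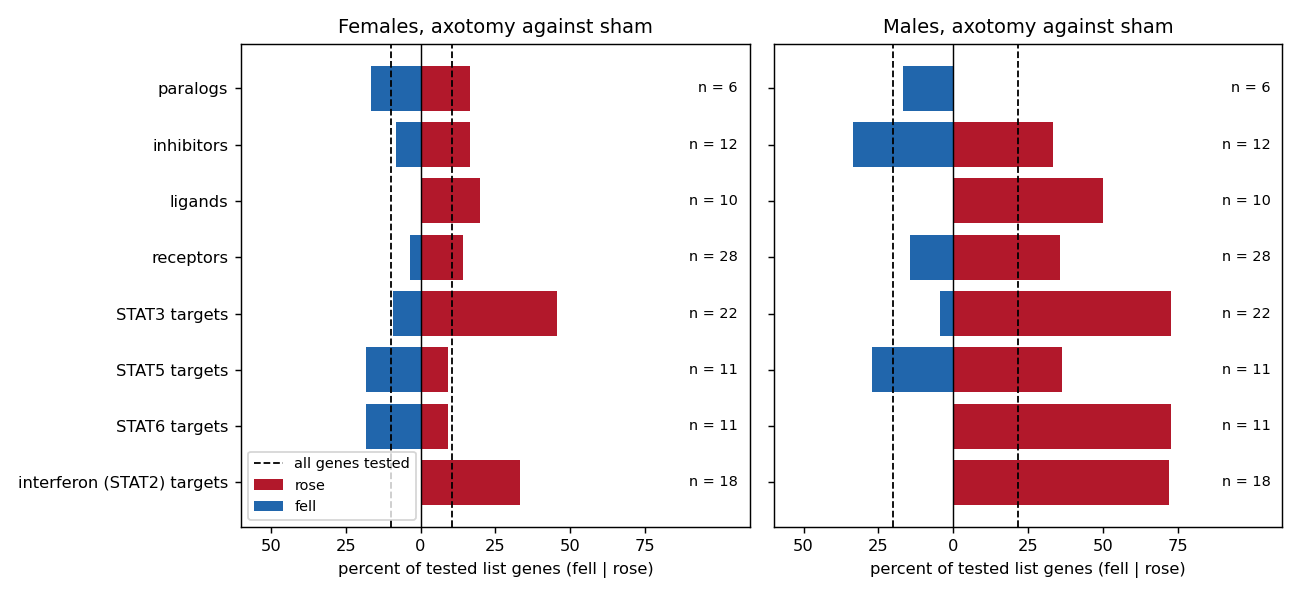
Percent of tested genes in each pathway list that rose (red, to the right) or fell (blue, to the left) after axotomy at padj under 0.1, in females and males, with the number tested at the right. Dashed lines mark the percent of all genes tested, 10.4% and 9.74% in females and 21.8% and 20.1% in males. The ligand, receptor, STAT3 and interferon (STAT2) lists have their larger bars on the right in both sexes.

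The genes whose log2 CPM followed each of the 9 most closely over the 10 libraries are given as a description, since all libraries share the same 4 groups. Jak2 and Socs3 had a Pearson r of 0.983 with each other, and Socs2 and Stat5a one of 0.951. Socs3 was most like Ccn4 (r = 0.991), Tifa (0.989), an adaptor of NF-κB signaling, and Taf15 (0.988). Jak2 was most like the glial filament gene Gfap (0.989), the Toll-like receptor adaptor gene Myd88 (0.988) and Steap1 (0.987). Cish was most like Cd44 (0.988), Zfp451 (0.981) and Zfp251 (0.981), and Socs2 most like Crybg1 (0.985), the potassium channel subunit gene Kcnmb4 (0.982) and Mex3a (0.981).

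Stat5a was most like Wfdc3 (0.98), Dtnbp1 (0.979) and Zfp90 (0.977). Stat3 was most like Sec23ip (0.987), the translation factor gene Eif3d (0.977) and the glycolytic gene Eno1 (0.976), and Eif3d ran from 93.97 to 96.9 CPM in sham, 100.3 to 105 CPM in female axotomy and 81.1 to 102 CPM in male axotomy. Stat2 was most like Cyb5b (0.907), Ddx56 (0.899) and Utp20 (0.892), and Socs1 most like Msantd2 (0.958), Zfp708 (0.934) and Uba2 (0.923). Stat6 was most like Nup214 (0.976), Stum (0.961) and Tle1 (0.96), all lower in axotomy than in sham libraries.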

How the data were processed

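Libraries of poly-A RNA were prepared by the authors with a stranded kit from DRG of 2 mice each and sequenced as paired 100-base reads. Reads were trimmed by the authors (Trimmomatic 0.39) and assigned with Salmon 1.3.0 to the Gencode M27 annotation of GRCm39. Salmon's strand setting was not given in the sources used here. Estimated counts as deposited by the authors, not normalized, were summed per gene and rounded. The deposited TPM, computed by Salmon from those counts and its effective lengths, were summed per gene for levels. Groups come from the sample labels.

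Genes were tested in R 4.3.3 with edgeR 4.0.16 (filterByExpr, minimum count 10, then TMM, average effective length as an offset, robust quasi-likelihood F test, all 10 libraries in 1 fit of 4 group means). Padj values are Benjamini-Hochberg values over 20836 genes and calls have padj under 0.1. The spread between libraries (biological coefficient of variation 0.129) exceeded counting error, and 3 counts correspond to 0.0333 to 0.0543 CPM. The fit was also run on simulated counts, and the outcome is not reported here. Libraries were treated as unpaired.

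The 9 genes and the lists of related genes were chosen with earlier results of these data known. Named besides the 9 were the other STAT and JAK genes, Socs4 to Socs7, for each other list the 3 genes of lowest p (lower of both sexes), and for each of the 9 genes the 3 protein-coding genes of highest Pearson r (mean CPM at least 1, prior count 2). Other genes of a list are named only for their membership. Of the genes this rule names, 2 are not reported here. Alternatives were RLE scaling, no filter, no length offset, DESeq2 1.42.0, own groups only, a replicate block, 1 surrogate variable (sva 3.50.0), a fibroblast marker covariate, protein-coding transcripts only and leaving out each library. Promoters are from a GRCm38.p6 table, a build other than that of the quantification, and were used only for sequence. Proteins were not analysed here.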

Additional observations from a re-analysis of the deposited data

How the results depend on the processing

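No called result of the 9 genes changed sign under any alternative run. RLE scaling and protein-coding transcripts alone left all 45 results (9 genes in 5 comparisons) on the same side of the threshold, and DESeq2 left 44. With 1 surrogate variable, for which all sham libraries exceeded all axotomy libraries, 3 of the 9 genes were called in females (Cish, Socs2 and Stat5a) and 0 in males, and with the fibroblast marker covariate 0 in males. Both covariates separate sham from axotomy in each sex. Between the sexes after axotomy 1 gene, Socs2, was called with no filter on low counts, with the surrogate variable and with DESeq2, where none was in the fit reported. Of all genes, 1.75%, 1.1% and 7.12% were called in those fits, against 1.52% in the fit reported. Same-numbered libraries showed no clear pairing (residual correlation −0.155 to 0.364 over 13 pairs, with 3 of 6 axotomy libraries closest to their own number in the other sex). With so few libraries, and residuals that mirror each other in the 2 sham libraries of a sex, this cannot exclude pairing. Under the replicate block 5 of the 9 were called in females, 6 in males and 1 (Socs2, padj = 0.0833) between the sexes after axotomy. Of all genes, 23.88%, 41.79% and 2.98% were called in those comparisons. Stat2 was gained (padj = 0.0941) and Stat6 lost (padj = 0.105) in males. A fit without a sham library leaves 1 in its group. Fewer of all genes were then called in that sex than in the fit reported. Leaving out 1 library at a time gave 2 to 5 in females, with 2 without female sham 2, and 3 to 7 in males, with 3 without male sham 1. It gave 0 to 1 between the sexes after axotomy and 0 for the interaction and in sham.

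Over the pathway lists, 25 genes rose and 8 fell in females. These were 9 and 4 with the surrogate variable, and 5 fell with no filter. In males 57 rose and 11 fell, which became 0 and 0 with the surrogate variable and 4 and 0 with the covariate. Of all genes, 0.12% and 1.51% were called in males in those fits. Fewer of all genes were also called in a sex when 1 of its sham libraries was left out, and in females without female axotomy 1 (9.67%). Without 1 library, 7 to 30 rose and 1 to 10 fell in females, lowest for rises without female sham 2 and for falls without female sham 1 or female axotomy 1, and 30 to 67 rose and 7 to 13 fell in males, lowest for rises without male sham 2. With the surrogate variable, the male log2FC changed sign for Cntf (−0.35), Irf4 (−0.35) and Jak1 (0.003), and with the covariate for Irf4 (−0.23) and Jak1 (0.078), with padj of 0.634 to 0.997. The cause of these changes was not tested. Of 40 calls of named list genes, 27 held whichever library was left out and 20 held with the covariate, among them 4 of 24 in males. With 2 sham libraries per sex, a single sham library often decides a call, and the low counts of Socs1 leave its interval wide.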
